A study of Mus musculus with 3 samples.

Results

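Tcf1 binding was examined at 9 chemokine receptor genes of effector, tissue-homing and follicular T cells, Cxcr3, Cxcr5, Cxcr6, Ccr2, Ccr4, Ccr6, Ccr8, Ccr9 and Ccr10, out of 21896 protein-coding genes in the annotation. A peak was counted for a receptor when its midpoint lay in the gene's mm10 span, or when the receptor was the nearest protein-coding gene within 100 kb. This rule gave 1 peak of the 4519 in the conventional CD4 T cell list and 2 of the 3402 in the Treg list. The 3 peaks fell at 2 genes, Ccr8 and Ccr6, and the other 7 receptors had none.

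Tcf1, the HMG-box factor encoded by Tcf7, was immunoprecipitated from CD4 T cells sorted from the spleens of Foxp3-Cre-GFP mice aged 8 to 10 weeks, in which the GFP reporter marks cells that express Foxp3. Conventional cells were TCRb+ CD4+ cells without CD25 and GFP, and Treg cells were TCRb+ CD4+ cells with both, so cells of both groups came from wild-type animals carrying the reporter and Cre. The tissue label of the conventional library reads effector, and how many mice went into a library is not stated in the labels. Another library, from all CD4 T cells of CD4-Cre+ Tcf1 fl/fl mice, which delete the factor in cells that have expressed CD4, was not analysed here. With 1 library per cell type there is no replicate error and no test of a difference between the cell types. The lists give positions without heights, scores or reads, so depth is unknown, and a receptor without a peak is one at which no peak was listed, not one shown to be unbound. Binding in a small subset of the sorted cells and weak binding in all of them cannot be told apart. Of the markers used as a check, 5 of 6 T cell genes had an assigned peak in at least 1 list, against 0 of 6 B cell and 0 of 6 myeloid genes. Those 5 were Cd3d, Cd3e, Cd28, Cd5 and Lck. Of all protein-coding genes, 20.4% had a peak of either list, and 0 of 6 is close to that share. With any peak within 10 kb counted, 2 B cell genes had a conventional and 2 a Treg peak. By that count the T cell genes were 5 and 6, and the myeloid genes 1 and 0.

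Chemokine receptors are seven-transmembrane receptors coupled to inhibitory G proteins, and they steer T cells along gradients of chemokines. Naive T cells use receptors that bring them to lymph nodes, while activated cells take on receptors for inflamed tissue, for barrier organs or for B cell follicles. Tcf1 is best known in mature T cells for its part in naive, memory and follicular helper cells. It binds DNA through an HMG box that recognises a short sequence with the core CTTTGA.

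The promoter sequences show where the receptors' start sites stand in relation to that core. RefSeq windows from 250 bases before to 50 after a start site (build GRCm38.p6, the assembly of mm10) were matched by symbol for 7 of the 9 receptors, with 8 windows in all because Ccr6 has 2. No window was matched for Cxcr5 or Ccr10, so their promoters were not examined. The windows of Ccr8 and Ccr6 are shown because these genes had the assigned peaks, and those of Ccr4 and Cxcr6 because they hold the core. The window of Fyco1, whose span encloses Cxcr6, is shown because a Treg peak overlapped it. Each is written 5′ to 3′ on the gene's own strand, with capitals marking the core CTTTGA or its reverse complement TCAAAG.
Ccr8, chr9:120091883-120092182, plus strand: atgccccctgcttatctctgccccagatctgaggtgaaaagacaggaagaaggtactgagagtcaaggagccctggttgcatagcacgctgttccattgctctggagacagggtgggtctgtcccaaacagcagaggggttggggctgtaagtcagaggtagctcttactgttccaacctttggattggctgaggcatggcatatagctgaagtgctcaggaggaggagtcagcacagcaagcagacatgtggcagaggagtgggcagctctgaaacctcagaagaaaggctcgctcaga
Ccr6, chr17:8235793-8236092, plus strand: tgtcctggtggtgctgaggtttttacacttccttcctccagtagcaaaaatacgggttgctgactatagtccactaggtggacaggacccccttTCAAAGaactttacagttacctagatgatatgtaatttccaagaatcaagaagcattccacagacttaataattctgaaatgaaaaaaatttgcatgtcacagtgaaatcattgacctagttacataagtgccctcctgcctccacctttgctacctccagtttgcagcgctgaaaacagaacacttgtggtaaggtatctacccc
Ccr4, chr9:114496495-114496794, minus strand: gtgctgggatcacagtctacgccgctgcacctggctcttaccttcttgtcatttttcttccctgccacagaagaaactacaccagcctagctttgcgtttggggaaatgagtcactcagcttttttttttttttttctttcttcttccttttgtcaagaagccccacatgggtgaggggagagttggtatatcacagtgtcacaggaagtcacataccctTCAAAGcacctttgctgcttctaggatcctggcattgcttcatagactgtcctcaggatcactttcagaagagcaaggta
Cxcr6, chr9:123806227-123806526, plus strand: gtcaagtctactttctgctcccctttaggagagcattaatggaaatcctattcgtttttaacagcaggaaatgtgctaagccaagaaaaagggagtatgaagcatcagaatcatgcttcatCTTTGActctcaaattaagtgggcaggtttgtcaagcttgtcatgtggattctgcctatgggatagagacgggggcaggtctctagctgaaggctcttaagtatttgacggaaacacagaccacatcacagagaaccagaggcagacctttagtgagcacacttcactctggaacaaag
Fyco1, chr9:123851850-123852149, minus strand: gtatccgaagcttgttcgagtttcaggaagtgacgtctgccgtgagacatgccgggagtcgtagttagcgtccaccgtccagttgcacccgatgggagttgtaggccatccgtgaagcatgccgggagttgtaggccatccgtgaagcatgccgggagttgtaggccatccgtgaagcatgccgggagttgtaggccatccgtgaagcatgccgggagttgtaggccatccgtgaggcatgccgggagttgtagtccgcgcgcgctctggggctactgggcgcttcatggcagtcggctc

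No peak of either list overlapped any of the 8 receptor windows. Over all 32851 windows of the same length, 7.66% were overlapped by a conventional peak and 4.86% by a Treg peak, and at such shares few windows with a peak would be found among 8. The core, searched on both strands, was present in 4 of the 8 windows, against 16% of all windows. It was centred at -27 from the start site in Ccr4 and at -126 in Cxcr6. The start site of the Ccr4 window, 114496544, is inside the gene's span. No window was matched at the upstream end of that span, 114505476, so that end was not examined. In the window of Ccr6 printed here it was centred at -153, and in the one at its other start site (chr17:8242276-8242575) at -22. The longer form CTTTGAA, which contains the core, was in 2 windows, Ccr4 and the printed window of Ccr6, against 5.14% of all windows. Among the 3058 windows that a peak of either list overlapped, 14.2% held the core. A match is a description of the sequence only.

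Other motifs were searched in the same way. The variant CTTTGT was in 3 receptor windows, Cxcr6, Ccr2 and Cxcr3 (18.7% of all windows), and the ETS core GGAAG was in 6 (71.4%). The RUNX sequence TGTGGT was in the windows of Cxcr6 and Cxcr3 and in 1 window of Ccr6 (16.8%). The E-box CAGGTG was in those of Ccr4, Ccr9 and Cxcr3 (20.2%). The AP-1 sequence TGANTCA was in that of Ccr4 (7.81%), and the forkhead sequence TAAACA was in that of Cxcr3 (13.4%). The KLF and SP box GGGCGG was in 0 of the 8 windows. It was in 35.7% of all windows and in 73.2% of those that a peak overlapped.

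Ccr8, a receptor for Ccl1 that is found on Treg cells of skin and tumours and on some Th2 cells, was the 1 receptor with a peak in both lists. The gene lies on chromosome 9 at 120092133 to 120094906. Its conventional peak (120082643 to 120083010) was 368 bp wide and had its midpoint 9307 bp before the gene's start, and its Treg peak (120082760 to 120083041) was 282 bp wide and lay 9233 bp before it. The gene is on the plus strand, so both peaks were upstream of the start site, between genes. The gene on their other side, Cx3cr1, is on the minus strand with its start site at 120068296. It lay 14530 bp from the conventional and 14604 bp from the Treg midpoint, so the peaks were upstream of both receptor genes. The rule gives them to Ccr8 as the nearer gene, and the positions alone do not say which gene they serve. The conventional and Treg peaks overlapped by 251 bp, which is 68.2% of the conventional and 89% of the Treg peak, and their midpoints were 74 bp apart. Of all protein-coding genes, 8.17% carried peaks of both lists, and 7.7% a conventional peak that was shared, meaning an overlap of 1 bp or more with a peak of the Treg list. The shared share was 42.8% over the whole conventional list (95% Clopper-Pearson interval 41.3% to 44.3%, counting error only) and 56.9% over the whole Treg list (55.2% to 58.6%).

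Ccr6, the receptor for Ccl20 carried by Th17 cells and by subsets of memory and Treg cells, had a peak in the Treg list and none in the conventional list. The gene lies on chromosome 17 at 8236041 to 8258519, on the plus strand. The Treg peak (8227681 to 8228010) was 330 bp wide, with its midpoint 8196 bp before the span and 8198 bp before the nearer start site. It lay between genes, and the nearest conventional midpoint was 62271 bp away. Genes with peaks in the Treg list alone made up 4.12% of all protein-coding genes. Genes with peaks in the conventional list alone made up 8.1%, and 0 of the 9 receptors were among them. The peaks of both receptors thus lay at a like distance upstream of a start site, and neither touched the promoter window.

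Counted over the 9 receptors, 1 had a conventional peak, against 16.3% of all protein-coding genes. A Treg peak was at 2 of them, against 12.3%, and a peak of either list at 2, against 20.4%. These counts are close to the background share. All 3 assigned peaks were narrow for their lists. The conventional Ccr8 peak was at the 32.9th percentile of width in its list, and the Treg peaks of Ccr8 and Ccr6 were at percentiles 20.1 and 37.7. Among the wider peaks of each list, 2274 conventional and 1706 Treg peaks at or above the median width of 428 or 366 bp, none was assigned to any of the 9 genes. Width is the sole property that the lists give, and it cannot be read as a strength of binding.

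**Figure D1:**
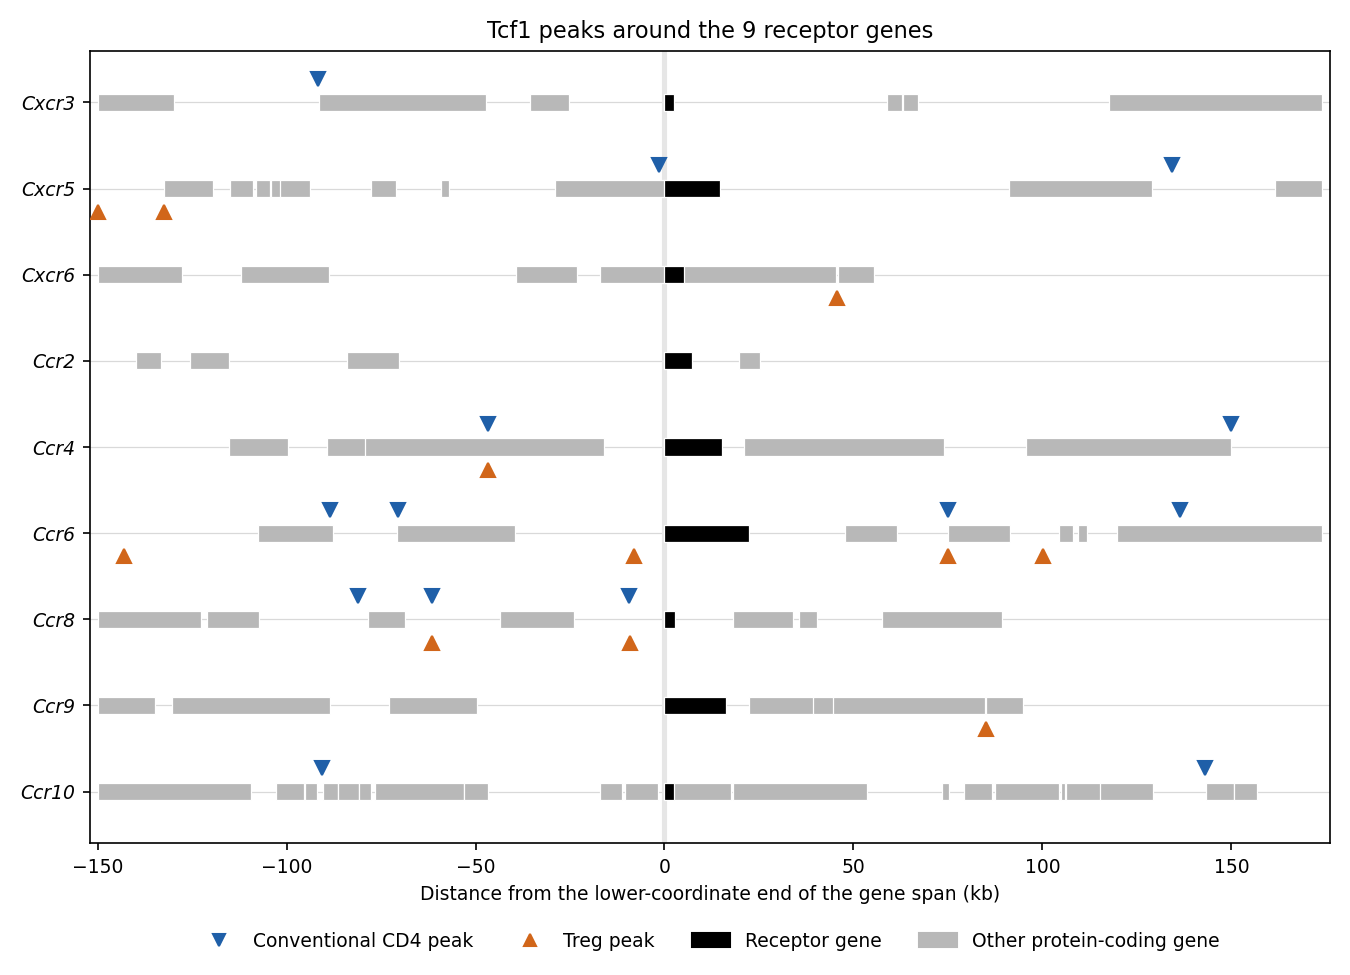
Tcf1 peaks within 150 kb of each of the 9 receptor genes, by distance in kb from the lower-coordinate end of the gene span. Triangles mark peak midpoints of the conventional (blue, above) and Treg (orange, below) lists, black boxes the receptor and grey boxes other protein-coding genes. The shared peak before Ccr8 and the Treg peak before Ccr6 are the ones for which a receptor is the nearest gene, and the row of Ccr2 has no peak.

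Cxcr5, which guides follicular helper and follicular regulatory T cells to the ligand Cxcl13 in B cell follicles, had the nearest peak of all 9 genes in the conventional list, although the peak was not counted for it. The gene spans 44511787 to 44526444 on chromosome 9. A conventional peak of 334 bp (44510208 to 44510541) had its midpoint 1413 bp below the lower coordinate of that span. This midpoint was inside the neighbouring gene Bcl9l (44482738 to 44511906), a coactivator of beta-catenin whose span overlaps that of Cxcr5 by 120 bp. No promoter window was matched for Cxcr5, so whether the peak lay at its start site or at its far end was not determined. The peak had no Treg partner, and the nearest Treg midpoint lay 132377 bp from Cxcr5, next to Hyou1. Of all protein-coding genes, 16.3% had a conventional peak nearer than that of Cxcr5. Because Bcl9l encloses the midpoint, the rule gives the peak to Bcl9l, and the positions alone do not say which gene it serves. This was the closest peak outside the rule, and the closest inside it was the Treg peak at 8196 bp from Ccr6.

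With every peak in a span or within 10 kb of it counted, whichever gene was nearest, 2 of the 9 receptors had a conventional peak, Cxcr5 and Ccr8, against 21.1% of all genes. By the same count 2 had a Treg peak, Ccr6 and Ccr8, against 15.1%.

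The receptors of Th1 and tissue-resident cells had no assigned peak. Cxcr3, the receptor for Cxcl9 and Cxcl10 on Th1 cells, lies on chromosome X at 101731535 to 101734147. Its nearest conventional peak was 91581 bp away, in the promoter window of Ogt, and its nearest Treg peak was 198758 bp away, next to Taf1. Cxcr6, the receptor for Cxcl16 on tissue-resident T cells, lies at 123806477 to 123811754 on chromosome 9, inside the span of Fyco1. A Treg peak of 327 bp (123851975 to 123852301) lay 40384 bp past its end, and the nearest conventional peak was 276772 bp away.

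That Treg peak lay in the gap between Fyco1 and Xcr1, a chemokine receptor gene of dendritic cells, and had no conventional partner. Its midpoint was nearer to the Xcr1 span, at 177 bp, so it was assigned to Xcr1. Xcr1 is on the minus strand, so this is its far end, and the peak overlapped the Fyco1 promoter window printed above by 175 bp. The window does not hold the TCF core. It is repetitive, with the 14-base run gggagttgtaggcc found 5 times within its 300 bases. Whether the repeat has a part in the peak was not tested.

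The same Treg peak was the nearest to Ccr9 and Ccr2. Ccr9, the receptor for Ccl25 that brings T cells to the small intestine, spans 123767211 to 123783457, and the peak lay 68681 bp past its end, against 237506 bp for the nearest conventional peak. Ccr2, a receptor for Ccl2 on monocytes and on some effector T cells, spans 124101918 to 124109140. Its nearest Treg peak was 249780 bp away and its nearest conventional peak 315118 bp away, so Ccr2 was the 1 receptor with no peak of either list within 100 kb. Ccr9, Cxcr6 and Ccr2 are neighbours that share their surroundings and are not independent observations, and 6 of the 9 receptors lie on chromosome 9.

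The skin-homing receptors Ccr4 and Ccr10 had no assigned peak either. Ccr4, the receptor for Ccl17 and Ccl22 on Th2 and Treg cells, spans 114490316 to 114505476 on chromosome 9. The gene is on the minus strand, and a shared peak lay past its far end, inside Glb1, the gene of lysosomal beta-galactosidase. Its distance from Ccr4 was 46756 bp in the conventional list (114443296 to 114443824, 529 bp). In the Treg list it was 46730 bp (114443222 to 114443951, 730 bp). At the 71.2nd and 93.8th percentiles of width, the shared peak was wider for its lists than any peak assigned to a receptor. Ccr10, the receptor for Ccl27a and Ccl28, spans 101172998 to 101175443 on chromosome 11. Its nearest conventional peak was 90531 bp away, next to Coasy, and its nearest Treg peak 163500 bp away, next to Atp6v0a1.

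How much genome can be assigned to a receptor differs among them, which bears on these counts. The stretch in which a receptor is the nearest protein-coding gene, within 100 kb, was 3.25 kb for Ccr10 and 5.3 kb for Cxcr6, whose spans other genes enclose or overlap. It was 54.9 kb for Ccr6, the longest, and 22.4 kb for Ccr8, and it came to 301 kb over all 9. A peak at Ccr10 would thus be given to a neighbour unless it lay close to the gene. Cxcr6 lies inside Fyco1, so only a midpoint within its own span of 5278 bp could be assigned to it.

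**Figure D2:**
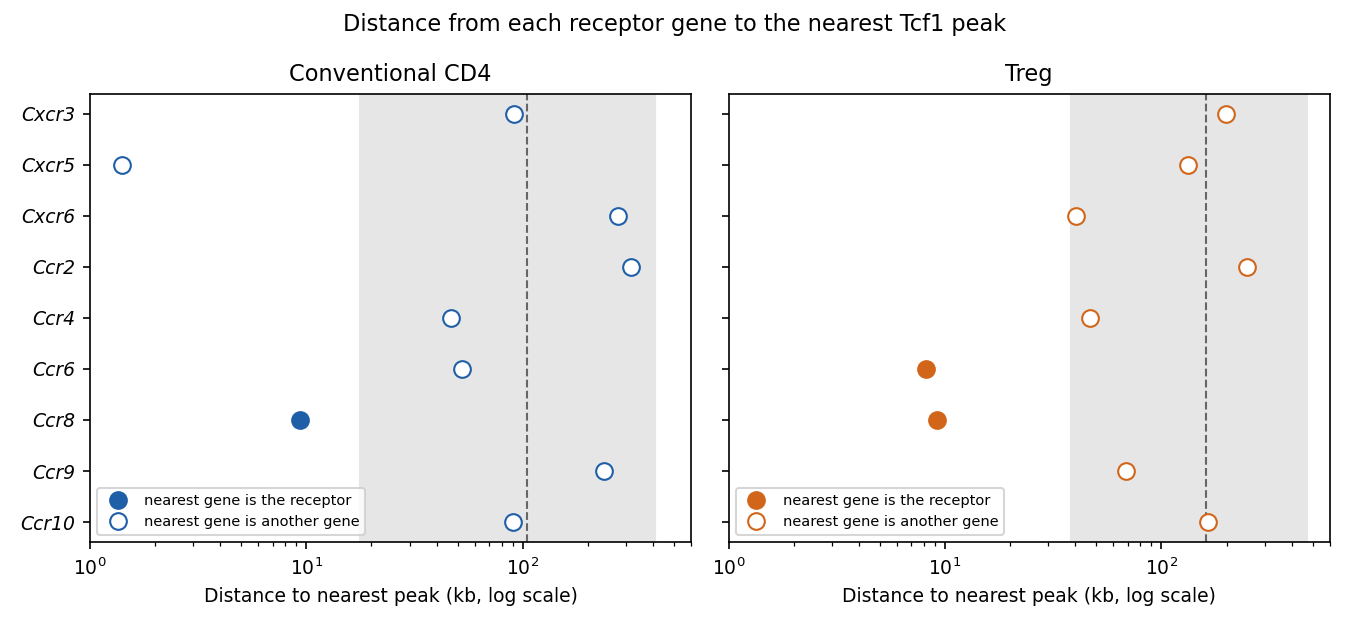
Distance in kb (log scale) from each receptor's span to the nearest conventional (left) and Treg (right) peak midpoint. Filled points are peaks assigned to the receptor and open points peaks assigned to another gene. The dashed line and the grey band are the median and the interquartile range over 21883 protein-coding genes, and 6 of the 9 receptors lie left of the median in each panel. In the Treg panel Cxcr6, Ccr9 and Ccr2 share a nearest peak, and in the conventional panel Cxcr6 and Ccr9 do.

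Distances to the nearest peak do not depend on which gene the peak is assigned to. The median distance from a receptor to a conventional peak was 90.5 kb, against 105 kb over all genes, and to a Treg peak 68.7 kb, against 160 kb. The 68.7 kb is the distance of Ccr9 to the Treg peak between Fyco1 and Xcr1, which was also the nearest to Cxcr6 and Ccr2. Cxcr6 and Ccr9 had the same nearest conventional peak too. The distances, and the counts below that rest on them, are thus not separate observations. In each list 6 of the 9 receptors were nearer to a peak than the median gene, and they were not the same 6. Cxcr3 and Ccr10 were nearer in the conventional list alone, and Cxcr6 and Ccr9 in the Treg list alone. A conventional peak lay within 100 kb of 6 receptors (49.1% of all genes), a Treg peak within 100 kb of 5 (40.1%) and a peak of either list within 100 kb of 8 (55.5%).

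Those flanks held 10 distinct conventional peaks, 4 of them shared, and 7 distinct Treg peaks, 4 of them shared. Other genes took 9 of the 10 and 5 of the 7. Of these, 4 of the conventional and 2 of the Treg peaks lay over a promoter window of another gene, among them the conventional peaks at Ogt, Rnaset2a and Cep43 and the shared peak at Sft2d1. Ccr8 and Ccr6 had the most peaks around them, with 3 conventional and 2 Treg peaks for Ccr8 and 3 of each list for Ccr6. Around Ccr8, a shared peak (120030494 to 120030941 in the conventional list) lay 61416 bp before the gene, between Xirp1 and Cx3cr1. The others around Ccr6 lay 52553 bp or more from it.

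The other chemokine receptors were then set beside these 9. Of 13 other receptor genes, 2 had a conventional peak, against 16.3% of all genes, and 3 a Treg peak, against 12.3%. Cxcr4, the receptor for Cxcl12 that holds cells in bone marrow and lymphoid tissue, had 5 conventional and 3 Treg peaks. All 3 Treg peaks were shared, 1 of them inside the gene (chromosome 1, 128591077 to 128591431). Ccr7, the receptor for entry into lymph nodes, had 5 and 2. No other receptor gene among these had more than 1 peak in a list. The remaining gene with a Treg peak was Xcr1, by the peak described above.

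**Figure D3:**
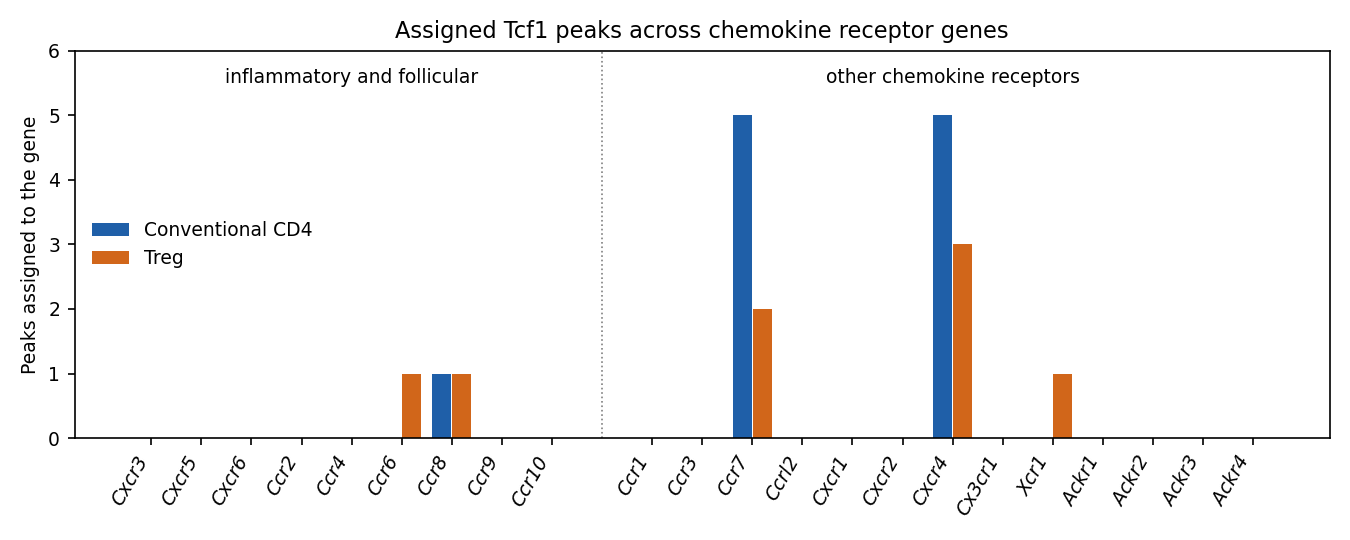
Number of Tcf1 peaks assigned to each of 9 inflammatory and follicular receptor genes (left of the dotted line) and 13 other chemokine receptor genes, in the conventional (blue) and Treg (orange) lists. Ccr7 and Cxcr4 each have 5 conventional peaks, while Ccr6, Ccr8 and Xcr1 have at most 1 in a list.

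Of 16 ligand genes of the 9 receptors, 15 are protein-coding in the annotation (Cxcl11 is not), and 1 had an assigned peak, in both lists. Of all genes, 20.4% had a peak of either list, 16.3% a conventional and 12.3% a Treg peak. The ligand was Ccl1, a ligand of Ccr8, with a shared peak 3646 bp past its span in the conventional list (chromosome 11, 82183223 to 82183693) and 3656 bp past it in the Treg list (82183349 to 82183588). Its Treg peak, 240 bp wide, had the minimum width of that list. A conventional peak lay 323 bp from Ccl25, a ligand of Ccr9, and was assigned to Elavl1.

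Genes that act downstream of the receptors were also examined. Of 18 genes of G protein signalling, desensitisation and migration, 13 had a conventional peak, against 16.3% of all genes, and 11 a Treg peak, against 12.3%. Both lists had a peak at 10 of them, and 14 had a peak in at least 1 list. Gnai2, the inhibitory G protein subunit that couples chemokine receptors, had a shared peak 1509 bp before its span in the conventional list and 1461 bp before it in the Treg list. Gnai3, a related subunit, had a conventional peak and no Treg peak. Arrb1 and Arrb2, arrestins that desensitise the receptors, and Rac1 and Rac2, GTPases of cell migration, each had a shared peak at or in the gene. Pik3r5, the regulatory subunit of the PI3-kinase activated by G proteins, had 4 conventional peaks and 1 Treg peak. Among regulators of G protein signalling, which shorten receptor signals, Rgs10 had a shared peak and Rgs2 had an unshared peak in each list. Rgs1 had a peak in the conventional list alone, 81703 bp past its span. Rgs16 had a peak in the Treg list alone, 16799 bp before its span. Of the adhesion genes Rap1a and Rap1b and their effector Rassf5, only Rap1a had a shared peak. Rap1b had 2 conventional peaks, 60709 bp and 73735 bp past its span, and no Treg peak. Rassf5 had 2 conventional peaks and 1 Treg peak inside the gene, none of them shared. The difference between these genes and the receptors was not tested. These genes were listed with earlier results of these data known, so their counts are not independent of the data.

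Of 9 transcription factors known for control of these receptors, 5 were listed with a conventional peak, against 16.3% of all genes, and 4 with a Treg peak, against 12.3%. This list too was chosen with earlier results of these data known, so its counts are not independent of them. A shared peak was at Bcl6, a regulator of follicular helper cells, at Rora, which acts in Th17 cells, and at Irf4 and Maf. Batf had a conventional peak 41 bp before its span and no Treg peak. Foxp3, Tbx21, Gata3 and Ascl2 had 0 assigned peaks in both lists. Peaks given to other genes lay within 100 kb of some of them. The nearest conventional and Treg midpoints were 10011 and 23021 bp from Foxp3, and 72955 and 75880 bp from Tbx21. For Ascl2 they were 99723 and 631024 bp away, and for Gata3 175264 and 160686 bp.

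By their counts of shared and other peaks, the genes most like Ccr6 were 9930012K11Rik, Cpn2 and Cpne5, and those most like Ccr8 were Arpc5, Lrrc61 and Ndufb5, with ties broken by summed peak width. The counts alone set neither gene apart over the 2 libraries, since 824 other genes had the same number of peaks and of shared peaks in each list as Ccr6, and 1091 the same as Ccr8. Ndufb5 is not among the 1091, because likeness was measured on shared conventional peaks and the Treg partner of its shared peak was assigned to another gene.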

How the data were processed

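Tcf1 ChIP-seq peaks of 2 of the 3 libraries of the study were used, 1 library per cell type. FastQC, Bowtie2 2.3.4.1, MACS2 2.1.1 and mm10 are named, without roles, per the submitters' processing notes. The deposited lists hold chromosome, start and end only and are called filtered by the authors. The filter and the control are not given in the sources used here. More reads can give more and wider peaks, so list lengths were not compared.

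Peaks were assigned in Python 3.11.15 (numpy 2.4.6, pandas 2.3.3, plots in matplotlib 3.10.9) with RefSeq gene spans of GRCm38.p6, which give no exons or introns. Midpoints inside several genes counted for each. Shared peaks overlapped by at least 1 bp. Assignment inside gene spans and overlap were tested on simulated data. The simulated peaks all lay inside genes, so assignment to the nearest gene outside a span was not tested. Positions are 1-based. Genes were named as members, as neighbours of their peaks, as list genes with a peak and as the 3 genes most alike in peak counts. Some genes of the planned lists are not reported here. Members and lists were chosen with earlier results of these data known. No genome sequence was used, so motifs were searched in promoter windows and not in peaks.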

Additional observations from a re-analysis of the deposited data

How the results depend on the processing

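Under 9 other settings, 46 counts were recomputed, and 38 kept their value to within 1.5 times. That share does not measure robustness, because some settings could not move a count. The assigned peaks lay 8196 to 9307 bp from the spans, so limits of 20 kb and 10 kb kept them. The Treg list already held 3402 peaks, so equal length left it unchanged. The Ccr8 peaks overlapped by 68.2% and 89%, with midpoints 74 bp apart, so they met both other sharing rules. With only the peaks at or above the median width of each list (2274 conventional and 1706 Treg), all 6 counts moved to 0: receptors with a conventional peak, with a Treg peak and with a shared peak, and conventional, Treg and shared peaks assigned to them. With all peaks in the span or within 10 kb counted, receptors with a conventional peak and conventional peaks assigned both moved from 1 to 2, by the peak near Cxcr5. Limits of 20 kb and 10 kb on the nearest gene, lists of equal length (3402 peaks), competition by genes of every biotype, merging of peaks within 1000 bp, and sharing by 50% overlap of both peaks or by midpoints within 1000 bp left the same receptors, Ccr8 in the conventional list and Ccr6 and Ccr8 in the Treg list. No paired analysis was possible because each cell type has 1 library and no result comes from a test. For the same reason no library could be left out. Depth is unknown, so a missing peak may lie under the calling threshold of its library.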
